A study of Homo sapiens with 60 samples.

Results

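Polygalae Radix is the dried root of Polygala, a herb of East Asian medicine, and its ethanol extract was given for 24 h to HepG2, an established human hepatocellular carcinoma line that makes many plasma proteins of the liver. The step described here is the medium dose of 50 ug/mL, as replicates 2 and 3, against the low dose of 10 ug/mL, also as replicates 2 and 3, so 4 of the 60 RNA-seq libraries of the series. They were picked from the dose and extract labels alone. The series also holds a high dose of 250 ug/mL (2 libraries), 3 vehicle libraries given DMSO, and other ethanol extracts at 3 doses each. The series text states that extracts with an IC20 (the concentration inhibiting by 20%) under 500 ug/mL were used at that concentration and at 2 serial 5-fold dilutions, which is the spacing of the 250, 50 and 10 ug/mL levels. All libraries come from the same cell line in the same serum-containing medium, and the extract is a mixture whose composition the labels do not give. The labels do not say whether 2 replicates came from 2 cultures, and the p-values below therefore speak of library-to-library spread, possibly technical. Except where stated, that spread was estimated over 57 libraries of 22 groups together, not from these 4 libraries alone.

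A hepatocyte devotes much of its transcriptome to secreted proteins. Their mRNAs are translated at the endoplasmic reticulum (ER), folded there by chaperones such as HSPA5, and carried to the Golgi and back by COPII and COPI coated vesicles. Plant extracts can also act on xenobiotic sensors: the aryl hydrocarbon receptor (AHR) binds flat aromatic ligands, pairs with ARNT and switches on CYP1A1, a cytochrome P450 that oxidises such compounds. HepG2 keeps both systems.

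Promoter stretches of 3 genes described below are shown because each holds a letter match to a known element (RefSeq promoters, GRCh38.p14, minus strand for each, 5′ to 3′, bases upstream of the RefSeq start). Whether the matched sites act on these genes was not tested. Capitals mark a letter match. In HSPA5 (chr9:125241344-125241493) it is the ER stress response element (CCAAT, 9 bases, CCACG), in ASNS (chr7:97872457-97872486) the amino acid response element TGATGNAAC, and in CYP1A1 (chr15:74725566-74725595) the AHR core GCGTG.
HSPA5: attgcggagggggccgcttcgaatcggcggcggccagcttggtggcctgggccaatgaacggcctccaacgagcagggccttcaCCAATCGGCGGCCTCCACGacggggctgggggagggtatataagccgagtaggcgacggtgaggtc
ASNS: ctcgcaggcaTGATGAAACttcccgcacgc
CYP1A1: agggaaggagGCGTGgccacacgtacaagc
The ER element, searched on both strands over 250 bases before and 50 after the start, was present in 22 of 27305 promoters (0.0806%) and in 5 of 17 promoters of the ER stress list used below. The amino acid element was present in 0.78% of all promoters and in 2 of 19 of the integrated stress response list. GCGTG, at 36.3% of all promoters, is too common to single out CYP1A1. The ER and amino acid elements were chosen for display after the values of HSPA5 and ASNS were seen.

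Totals were 21968997 and 22843756 counts at 50 ug/mL and 20406679 and 38905899 counts at 10 ug/mL, and the 53 other fitted libraries ran from 17518479 to 34098760. Hepatocyte markers summed to 33800 and 39200 CPM (library-scaled counts) at 50 ug/mL and to 44900 and 46100 CPM at 10 ug/mL, with none of the 8 at 0, so the cells carry the label's markers. Of 12 blood markers, 5 were at 0 in all 4 libraries, among them PTPRC and CD3E, and the list summed to 1060 and 1140 CPM at 50 ug/mL and 1360 and 1430 CPM at 10 ug/mL, nearly all of it LYZ. Of 10 stromal, 9 endothelial and 11 lung and gut markers, 4 each were at 0, including COL1A2, KDR and SFTPC. The lung and gut list summed to 362 and 369 CPM against 451 and 458 CPM, mostly VIL1 and LGR5. LYZ and VIL1 were lower at 50 ug/mL (-0.36 and -0.43, both called), and their part in the other falls was not tested. CPM values are shares of a library, so fewer cells of a kind and less RNA per cell cannot be told apart, and a fall is a fall relative to other genes.

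One library stood apart before any gene was considered. In replicate 2 at 50 ug/mL, genes rose with the GC content of their transcript by 0.18 on the log2 scale per 10 percentage points, and this trend held 17% of that library's variance. The other libraries had slopes of 0.01 (50 ug/mL replicate 3), -0.01 and 0 (10 ug/mL replicates 2 and 3). Slopes of 0.08, 0.21 and 0.21 were found in the 3 vehicle libraries and of 0.12 and -0.08 in replicates 2 and 3 at 250 ug/mL, so comparisons with these groups carry such trends too. The differences between replicates 2 and 3 at 50 and at 250 ug/mL correlated at 0.47 over 13218 genes, a description with no test. The SD of the log2 difference between replicates 2 and 3 was 0.292 at 50 ug/mL and 0.231 at 10 ug/mL. In the Aucklandiae Radix groups it was 0.205 to 0.242, so the 50 ug/mL pair differed more than the shared spread may allow for. Mitochondrially encoded genes took 12.6% and 14.3% of counts at 50 ug/mL and 12.9% and 12.0% at 10 ug/mL, against 15.8% to 19.1% in vehicle. Replicate 3 at 10 ug/mL had 0.193% of its counts on processed pseudogenes, where its mate had 0.149%.

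**Figure D1:**
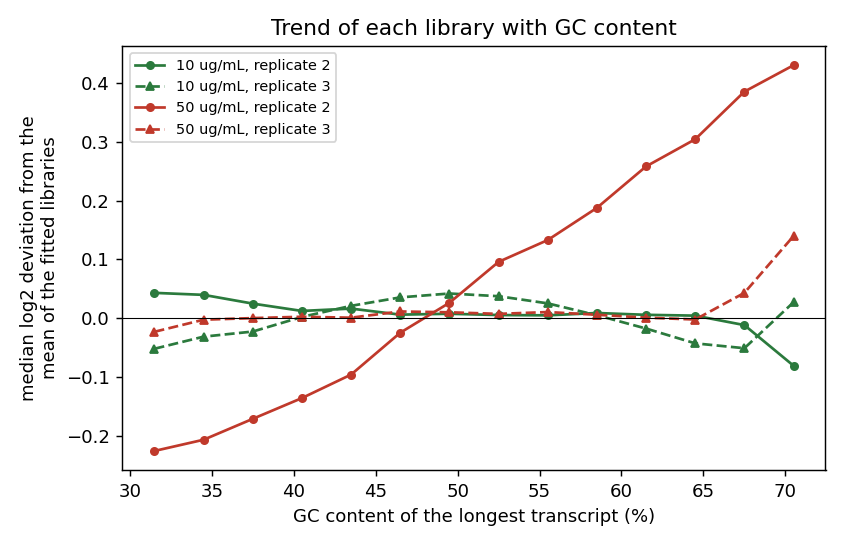
Median log2 deviation of each library from the mean of the fitted libraries (y axis) in bins of transcript GC content in percent (x axis), 1 line per library, bins of at least 20 genes. The line of 50 ug/mL replicate 2 climbs across the whole range while the other 3 stay near 0.

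Moving from 10 to 50 ug/mL changed many genes by a little. With edgeR's quasi-likelihood test, 1429 of 16982 genes tested had an adjusted p under 0.05 (8.41%), 565 of them higher (3.33%) and 864 lower (5.09%) at 50 ug/mL. The median size of these changes was 0.29 on the log2 scale, and 91.6% were within 1.5-fold. Only 63 passed 2-fold, and 6 of those reached 5 CPM in the higher group. Over all genes tested the median change was 0.

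The higher and lower calls did not rest on the libraries in the same way. From the quintile of genes with the lowest GC content to the quintile with the highest, the calls higher numbered 5, 12, 50, 141 and 356, and the calls lower 226, 286, 189, 132 and 31. Without 50 ug/mL replicate 2, 19 genes were higher and 342 lower (2.05% of genes in all), with 3 higher in the top GC quintile. With the GC trend of each library removed, 416 were higher and 784 lower (7.07%), and the top quintile held 110 of the higher calls. That removal also takes out any response to the extract that follows GC content. A fit on these 4 libraries alone, with their own spread, called 20 genes, 1 of them higher.

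The genes least dependent on a library are therefore described first: those called the same way with each of the 4 libraries left out in turn and with the GC trend removed, together called the 5 refits. There were 211, of which 206 were lower and 5 higher, and all had non-overlapping libraries in the 2 groups. Among all genes tested, 22.7% had both 50 ug/mL libraries below both 10 ug/mL libraries, and 19.3% the reverse. The 206 lower genes fell by 0.19 to 0.73, with a median log2 change of -0.34, and 205 of them were protein-coding. The contrast of 250 ug/mL against vehicle uses other libraries, which entered the choice only through the shared estimate of spread. There 205 of the 206 were lower and none higher (background 33.8% lower and 33.1% higher), with a median of -1.63. Of all 864 genes called lower, 754 were lower there and 29 higher, with a median of -1.04.

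**Figure D2:**
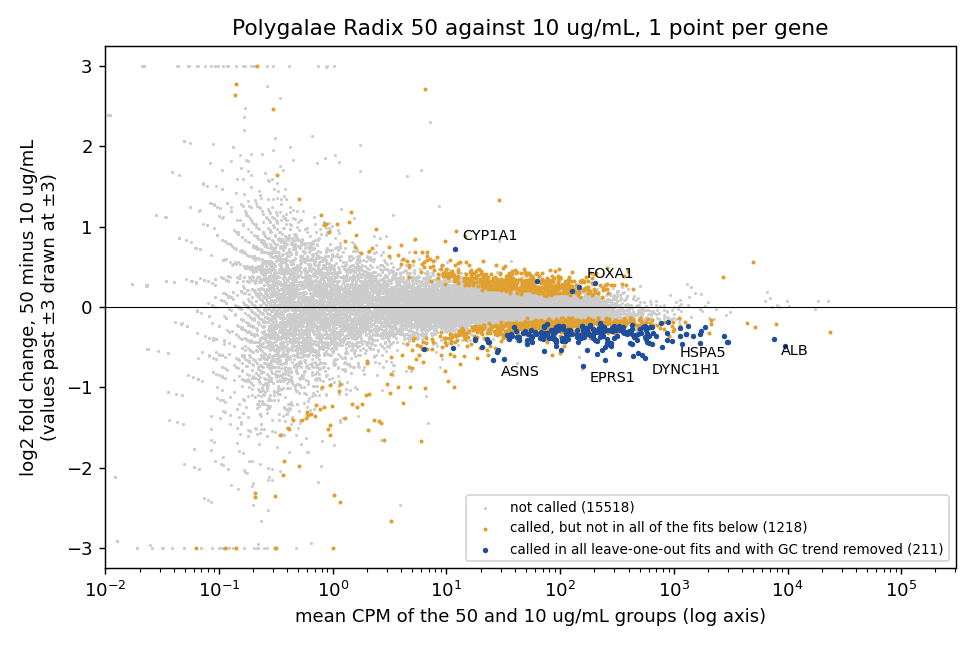
Log2 fold change of 50 against 10 ug/mL (y axis) against the mean CPM of both groups (x axis, log scale), 1 point per gene. Genes with no count in the 4 libraries are not drawn. Genes called in all 5 refits (dark) lie almost all below 0 and at high levels, apart from CYP1A1 and 4 others.

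These genes were mostly abundant. When protein-coding genes were ordered by CPM per kilobase of transcript over all fitted libraries, the top decile (38.4 CPM per kilobase and more) held 116 of the lower genes called in all 5 refits, the next decile 39, and the lowest 2 deciles none. The whole top decile of 1318 genes moved a little, with a median log2 change of -0.08, and 306 of them were called lower against 43 higher. The median was -0.07 without 50 ug/mL replicate 2 and -0.08 with the GC trend removed. In the same decile the median was -0.03 for the step of Aucklandiae Radix from 11.2 to 56 ug/mL and -0.47 for Polygalae Radix at 250 ug/mL against vehicle. Deeper counts also make small changes easier to call, and the part this plays in the tally was not tested.

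The clearest rise was CYP1A1 (chr15:74719542-74725610, minus strand, GENCODE 29). Its level was 14.9 and 14.5 CPM at 50 ug/mL and 9.10 and 8.81 CPM at 10 ug/mL. The groups lie well apart, and the vehicle libraries, at 7.56 to 9.01 CPM, sit with the low dose. The log2 fold change was 0.72 (SE 0.13, edgeR adjusted p = 2e-04), and 0.69 to 0.70 with the GC trend removed or 50 ug/mL replicate 2 left out. At 250 ug/mL CYP1A1 stood at 106 and 98.3 CPM. The receptor's own subunits did not pass the test: AHR changed by 0.01 and its partner ARNT by -0.04. TIPARP, an AHR target that restrains the receptor, changed by -0.04. Of the 6 tested AHR targets, CYP1A1 was the only one called higher, and NQO1, which is also an NRF2 target, was lower by 0.22 (376 and 396 against 456 and 445 CPM).

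The 4 other genes higher in all 5 refits rose by 0.20 to 0.33. FOXA1, a pioneer factor of liver chromatin, was at 163 and 156 CPM against 132 and 135 CPM, with a log2 fold change of 0.25 (adjusted p = 0.00074). ZFP36L2, which destabilises AU-rich mRNAs, was at 225 CPM in both 50 ug/mL libraries against 175 and 189 CPM. INCENP, a subunit of the chromosomal passenger complex, and SPRING1, which aids the processing of SREBP factors, rose by 0.33 and 0.20. Of these 4, FOXA1 and INCENP were also high in vehicle (155 and 77.4 CPM on average), so 50 ug/mL lay nearer to vehicle than 10 ug/mL did. ZFP36L2 and SPRING1 were lowest in vehicle (166 and 95.4 CPM) and highest at 250 ug/mL (424 and 174 CPM). PEA15, an adaptor that binds ERK, was higher by 0.30 but was not called in all 5 refits.

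Among hepatocyte transcription factors, 4 of 14 were called higher and none lower, among them FOXA1, HNF4A (0.28) and ONECUT1 (0.39). The list median was 0.19, or 0.16 without 50 ug/mL replicate 2 and 0.10 with the GC trend removed. HNF4A stood at 453 and 383 CPM against 356 and 331 CPM. Its groups lay apart, but its mean was carried up by the first of these libraries. In these 3 genes the library with the GC trend was the higher of the pair, and of them FOXA1 alone was called without it.

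Among genes lower in all 5 refits, the largest falls were those of EPRS1, ASNS and SPTAN1. EPRS1, which charges both glutamate and proline tRNAs, was at 116 and 123 CPM against 192 and 203 CPM. Both doses were tight and apart, and vehicle, at 190 to 201 CPM, matched the low dose. EPRS1 fell by 0.73 on the log2 scale (SE 0.06, adjusted p = 3.3e-13). ASNS, asparagine synthetase, was at 18.2 and 21.8 CPM against 31.9 and 31.4 CPM, and fell by 0.66 (SE 0.11). SPTAN1, the alpha chain of non-erythroid spectrin, was at 201 and 186 CPM against 294 and 317 CPM. DYNC1H1, the heavy chain of cytoplasmic dynein, was at 444 and 423 CPM against 656 and 687 CPM. The non-muscle myosin heavy chain MYH9 fell by 0.59. FOCAD, focadhesin, fell by 0.64. All 6 were called in all 5 refits. By the rule for named genes, RPL17P6, HNRNPA1P7 and EEF1A1P5 also belonged to the 10 largest falls. The falls of RPL17P6 (-1) and HNRNPA1P7 (-0.99) were larger than that of EPRS1. These processed pseudogenes were not called in all 5 refits and are treated below with the library they depend on.

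**Figure D3:**
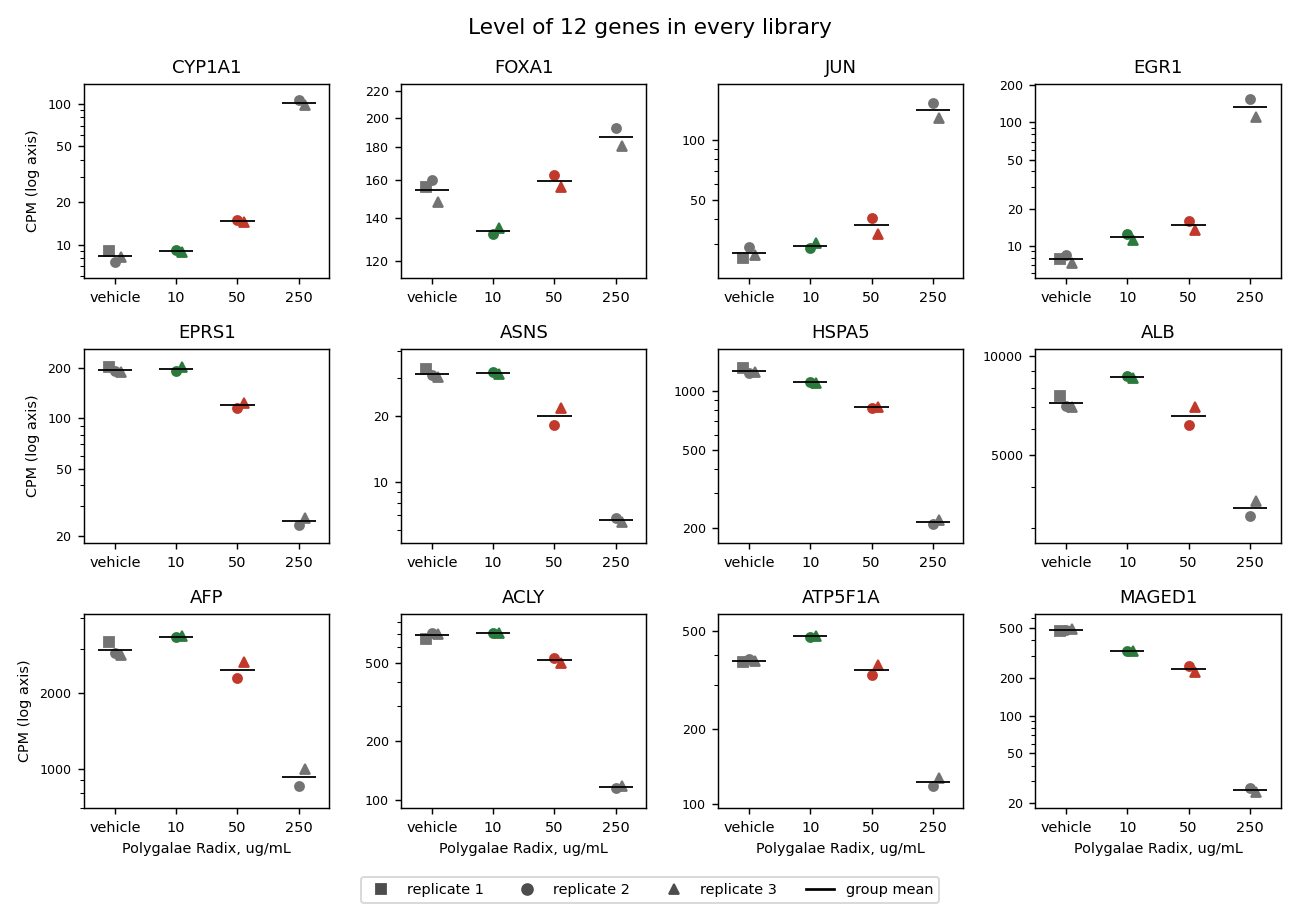
CPM of 12 genes (y axis, log scale, its range set per gene) in each library of vehicle and of Polygalae Radix at 10, 50 and 250 ug/mL (x axis), marker shapes for replicate numbers and bars for group means. For EPRS1, ASNS and ACLY the 10 ug/mL points lie level with vehicle and the 50 ug/mL points below both, whereas CYP1A1 lies above both at 50 ug/mL.

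Of 24 secreted liver proteins tested, 16 were called lower and none higher, with a median log2 change of -0.26 against 0 for all genes, and 8 were lower in all 5 refits. Without 50 ug/mL replicate 2, 9 were lower and the median was -0.25, and the median was -0.28 with the GC trend removed. ALB, serum albumin, was at 6160 and 7010 CPM against 8720 and 8600 CPM, a log2 change of -0.40 (SE 0.06, adjusted p = 1.3e-05). AFP, the fetal counterpart of albumin, was at 2300 and 2660 CPM against 3340 and 3370 CPM. Both genes were lower in the library with the GC trend than in its mate, yet the mate alone was also below both low-dose libraries. ITIH2, an inter-alpha-trypsin inhibitor heavy chain, and TTR, the thyroxine carrier transthyretin, fell by 0.46 and 0.40, although TTR was not called without 50 ug/mL replicate 2 (-0.24). VTN, vitronectin, was at 76.2 and 71.2 CPM against 97.9 and 94.4 CPM. A wider list of 25 complement and coagulation factors, put together after the values were seen and sharing members with the first, had 17 lower and none higher, 9 of them in all 5 refits and 10 without 50 ug/mL replicate 2.

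The step from 10 to 50 ug/mL did not look the same against vehicle for each of these proteins. ALB and AFP were above vehicle at 10 ug/mL, their vehicle means being 7200 and 2990 CPM. At 50 ug/mL AFP was below vehicle (log2 change -0.27), while ALB (-0.13) did not pass the test. VTN was below its vehicle mean of 119 CPM at both doses. Of the 206 lower genes, 64 were called lower and 59 higher at 10 ug/mL against vehicle, where 17.4% and 18.7% of all genes were called. At 50 ug/mL against vehicle 177 were lower and 1 higher, against backgrounds of 13.4% and 12.6%. Both of these share libraries with the step itself.

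Of 18 tested genes of the ER unfolded protein response, 8 were lower, none higher, with a median of -0.19, and 5 were lower in all 5 refits. HSPA5, the main ER chaperone, whose promoter is shown above, was at 818 and 834 CPM against 1120 and 1100 CPM. The replicates of each dose nearly coincided, and the fold change of -0.42 (SE 0.05, adjusted p = 1.3e-07) was -0.37 with the GC trend removed. HSP90B1, its partner in folding secreted proteins, fell by 0.41, and the disulfide isomerases PDIA3 and PDIA6 by 0.41 and 0.32. Among the cytosolic and mitochondrial chaperones, 4 of 18 heat shock genes were lower and none higher, with a list median of -0.09. The lower ones included HSPD1 (-0.45), HSP90AB1 (-0.36) and HSP90AA1 (-0.34), while the inducible HSPA1A changed by -0.07 and did not pass the test.

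Vesicle coats, tRNA synthetases and the cytosolic chaperonin were examined as lists after the values were seen, so their counts describe and test nothing. Of 9 COPI subunits 7 were lower, 4 without 50 ug/mL replicate 2 and 4 in all 5 refits, with a median of -0.26. COPA was at 169 and 172 CPM against 248 and 261 CPM, with replicates close together and the doses apart. COPII had 5 of 11 lower, with a median of -0.18. CLTC, the clathrin heavy chain, was at 637 and 675 CPM against 930 and 928 CPM. Among 20 cytosolic aminoacyl-tRNA synthetases 12 were lower (median -0.21), and in the CCT chaperonin, which folds actin and tubulin, 7 of 8 were (median -0.21), or 3 without 50 ug/mL replicate 2 and 4 with the GC trend removed. No member of these 4 lists was called higher.

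Of 24 nuclear-encoded respiratory chain genes, 13 were lower and none higher (median -0.24), 6 without 50 ug/mL replicate 2 and 5 in all 5 refits. ATP5F1A, the alpha subunit of ATP synthase, was at 330 and 362 CPM against 472 and 475 CPM, a log2 change of -0.45. UQCRC2, a core protein of complex III, fell by 0.36. None of the 13 mitochondrially encoded genes was called, and their median was 0.02, or 0.20 without 50 ug/mL replicate 2. At 10 ug/mL the nuclear-encoded list lay above vehicle (median 0.31) and at 50 ug/mL close to it (0.05). Fatty acid oxidation had 6 of 19 lower, or 2 without 50 ug/mL replicate 2, led by FABP1, the liver fatty acid binding protein (-0.48, not called in all 5 refits), HADHA (-0.46) and HADHB (-0.40), the subunits of the trifunctional protein. HADHA was at 224 and 222 CPM against 303 and 309 CPM. Lists assembled after the values were seen gave 8 of 17 lower for the tricarboxylic acid cycle (4 without 50 ug/mL replicate 2) and 7 of 15 for glycolysis, with PKM at 652 and 579 CPM against 789 and 793 CPM.

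Of 14 tested fatty acid synthesis genes 4 were lower and 1 higher, with a median of -0.09. With the GC trend removed 4 were lower and none higher. ACLY, which makes cytosolic acetyl-CoA, was at 529 and 498 CPM against 703 and 702 CPM (log2 change -0.45, adjusted p = 1.1e-09), and ACACA, the next enzyme, fell by 0.33. FASN was at 2030 and 1580 CPM against 2320 and 2180 CPM, with the GC-trend library the higher of the pair, and its change of -0.32 was -0.51 without that library. Without its mate the change was -0.15 (adjusted p = 0.18) and without 10 ug/mL replicate 2 the adjusted p was 0.061, so FASN was not called in either. MLXIPL, the carbohydrate-sensing factor of this pathway, was called higher (0.29) in the main comparison and not called with the GC trend removed. FADS2, a desaturase, changed by 0.06 and did not pass the test. Of 25 cholesterol genes 6 were lower and none higher, the largest being ACAT2 (-0.28), and the list median was -0.05. Without 50 ug/mL replicate 2 there were 2 lower with a median of -0.11, and 1 was lower in all 5 refits. HMGCS1, at 448 and 523 against 571 and 548 CPM, did not pass the test.

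In the integrated stress response list 5 of 21 were lower and 1 higher. ASNS, the serine pathway enzyme PHGDH (-0.38) and the mitochondrial SHMT2 (-0.32) were lower in all 5 refits, while the factor ATF5 was higher by 0.41, and by 0.19 and not called without 50 ug/mL replicate 2. TRIB3, a target of the same pathway, changed by 0.06. None of 12 amino acid transporters was called. Of 20 NRF2 targets 4 were lower and 1 higher, and HMOX1 changed by 0.12. Of 20 p53 targets 1 was lower and 1 higher (BBC3, 0.62, not called in all 5 refits), and CDKN1A changed by 0.05.

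Of 18 immediate early genes, which are switched on within minutes of growth factor or stress signals, 1 was called, a share near that over all genes, and 15 had changes above 0. The list median was 0.09, or 0.25 without 50 ug/mL replicate 3 and 0.02 without replicate 2. JUN was the one called, at 40.6 and 33.6 CPM against 28.5 and 30.2 CPM (log2 change 0.33, adjusted p = 0.021), and it was not called when 50 ug/mL replicate 2, 10 ug/mL replicate 2 or 10 ug/mL replicate 3 was left out. EGR1 was at 15.9 and 13.3 CPM against 12.4 and 11.1 CPM, and FOS was under 1 CPM in all 4 libraries. At 250 ug/mL against vehicle 17 of the 18 were called higher, with a median of 1.59. Among EGFR ligands and ERK feedback genes, DUSP6, an ERK phosphatase, was lower (-0.29) and the other 15 were not called. EREG, RASD1 and METRNL, at 0.22, 0.37 and 0.64, did not pass the test. METRNL was near 1 CPM, with an SE of 0.39 for its change, and the part played by its low level was not tested.

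The share called among cell division genes differed by list, where 8.41% of all genes were called. Of 24 mitosis genes only TOP2A, which untangles DNA, was called, at 480 and 512 CPM against 672 and 636 CPM (log2 change -0.40), and it was lower in all 5 refits. MKI67 changed by -0.10. In DNA replication 3 of 24 were lower and CDT1 was higher (0.39, not in all 5 refits). MAGED1 and MAGED2, members of the MAGE family that are broadly expressed, fell by 0.48 and 0.55, at 249 and 222 against 330 and 329 CPM for MAGED1. Both were already below vehicle at 10 ug/mL, where MAGED1 averaged 330 CPM against 485 CPM. The proteasome had 8 of 21 lower (median -0.16), but 2 without 50 ug/mL replicate 2 and none in all 5 refits. Metallothioneins, bile acid genes, drug metabolism genes under PXR and CAR, LXR targets, acute phase genes and gluconeogenic genes had no call.

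**Figure D4:**
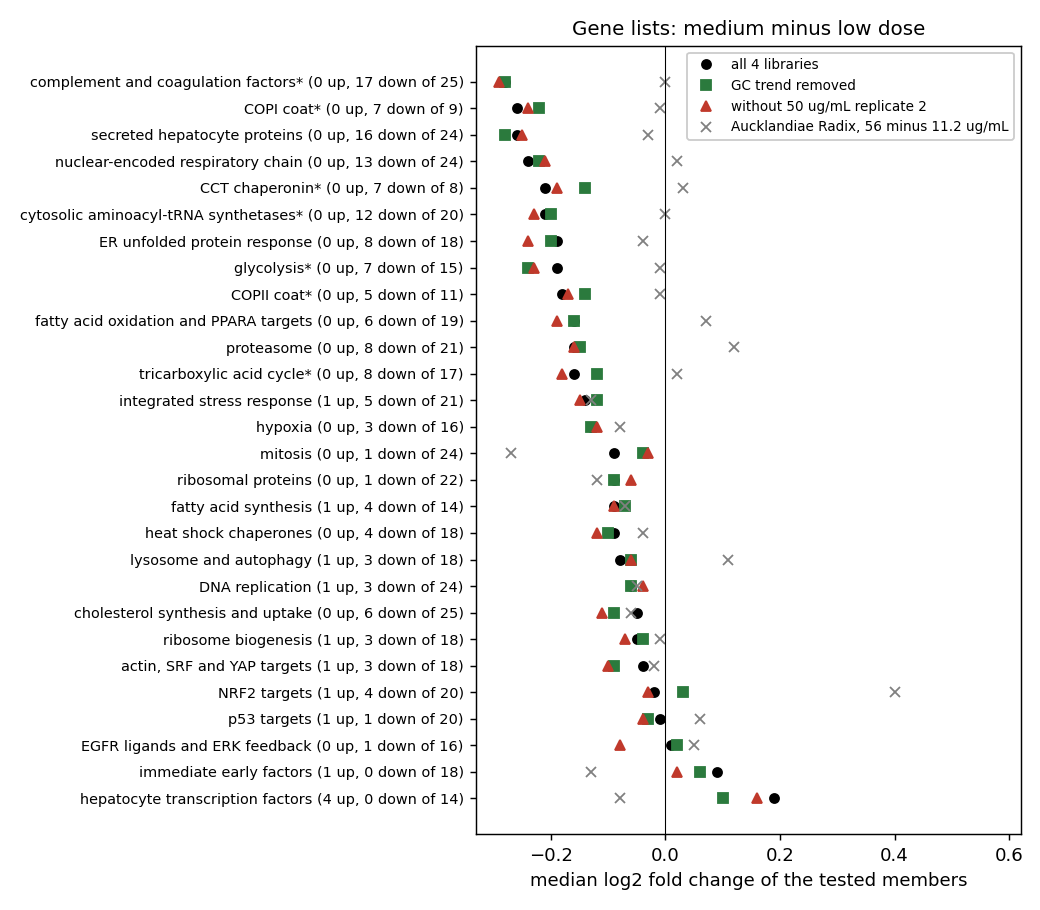
Median log2 fold change (x axis) of gene lists with at least 8 tested members and 1 call (y axis, with counts called up and down), for 4 settings shown by marker. An asterisk marks lists assembled after the values were seen. Secreted proteins, COPI and the respiratory chain lie left of 0 in all 3 Polygalae Radix settings and near 0 for Aucklandiae Radix. The Guibi-tang step is not drawn, and its medians for these lists were -0.11, -0.06 and 0.06.

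A decline of processed pseudogenes rested on a single low-dose library. Of 586 tested, 42 were called lower and 4 higher, with a median of -0.22. Without 10 ug/mL replicate 3 the median was -0.02 and 3 were lower. RPL17P6 was at 3.44 and 3.10 CPM against 4.18 and 8.32 CPM, HNRNPA1P7 at 7.27 and 8.85 against 10.6 and 20.3 CPM, and EEF1A1P5 at 69.9 and 67.3 against 82.7 and 122 CPM. In each the highest value was that replicate, which was also the deepest library. Processed pseudogenes share sequence with their parent genes, so their counts are uncertain, and the part played by depth was not tested.

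The dose step was then set against those of 2 other treatments at the same 5-fold spacing, each with its own low-dose libraries. Aucklandiae Radix, another herb, went from 11.2 to 56 ug/mL (2 libraries each), and Guibi-tang from 20 to 100 ug/mL (3 each). Both are labelled as ethanol extracts, and the labels do not give their composition. The doses differ, so the test asks whether the steps differ and not which extract is stronger. The step differed from that of Aucklandiae Radix in 1312 genes (7.73%) and from that of Guibi-tang in 1041 (6.13%), by edgeR's interaction contrast. Without 50 ug/mL replicate 2 these counts were 568 and 365.

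Of the 206 lower genes, 161 differed from Aucklandiae Radix and 167 from Guibi-tang, but these genes were chosen for their fall in the same 4 libraries, so the counts are a description. Of all 864 genes called lower, 391 and 457 differed. For the 206, the median change in those steps was -0.01 in each. EPRS1 changed by 0.07 and -0.01 there, and the difference was -0.80 (adjusted p = 4.2e-10) and -0.72 (adjusted p = 5.5e-09). HADHA, at 0.05 and 0.03, and MYH9, at 0.04 and -0.01, also differed from both. Of the 24 secreted proteins, 6 and 4 differed, and of the 18 ER genes 6 and 5. The secreted proteins had a median of -0.03 in the Aucklandiae Radix step and -0.11 in that of Guibi-tang. For the complement and coagulation factors these medians were 0 and -0.15, so a smaller fall was also seen with Guibi-tang. AFP fell by 0.51 with Aucklandiae Radix and by 0.32 with Guibi-tang, and neither difference passed the test (0.08, adjusted p = 0.67, and -0.11, adjusted p = 0.45). VTN, TTR, FABP1 and ASNS were likewise not shown to differ from either step. CYP1A1 rose by 0.46 with Aucklandiae Radix, not shown to differ (0.26, adjusted p = 0.49), and by 1.40 with Guibi-tang, a larger step than here (difference -0.68, adjusted p = 0.0069). FOXA1 changed by -0.28 and -0.08 in the other steps and differed from both (0.53 and 0.34).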

How the data were processed

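HepG2 total RNA (RNA integrity number above 7) was made into directional mRNA libraries and sequenced as paired reads, per the labels' protocols. The submitters' processing notes name Trim Galore 0.6.5, STAR 2.7.3a and RSEM 1.3.3. The authors deposited expected counts per Ensembl gene, of which 9.97% were not whole, and these were rounded. The annotation release is not given in the sources used here, and 57055 of 60675 gene IDs matched GENCODE 29, which gave names, lengths and GC content.

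The 57 libraries of the 22 groups with at least 2 libraries were fitted together (edgeR 4.0.16, R 4.3.3, TMM scaling, filterByExpr with a minimum count of 10, quasi-likelihood test, 35 residual degrees of freedom, biological coefficient of variation 4.65%). A gene was called at a Benjamini-Hochberg adjusted p under 0.05 over all 16982 genes. CPM are TMM-scaled. The 3 single-library groups of Okbyeongpung-san were not used. GC trends were natural splines (5 degrees of freedom) of each library's log2 deviation, entered as offsets. DESeq2 1.42.0 and other settings served as alternatives, and the scripts were tested on simulated data.

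The libraries, gene lists and tests were chosen with earlier results of these data known. Named genes are the 10 highest and 10 lowest changes of at least 5 CPM called in the fit of all libraries, without either 50 ug/mL library and with the GC trend removed, up to 4 called members per list, a panel of 20 reported whatever its change, and the 5 highest and 5 lowest of each interaction. COPA, CLTC, PKM, AHR, ARNT and TIPARP were added after their values were seen. Some genes that the rule picks are not reported here.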

Additional observations from a re-analysis of the deposited data

Results flagged for a closer look

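The results listed here are those where the dose step of Polygalae Radix differed from that of another treatment by edgeR's interaction contrast, which is what marked them. Such genes numbered 1312 against Aucklandiae Radix and 1041 against Guibi-tang. The groups here hold 2 or 3 libraries, too few to look for a single outlying sample.

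Against Aucklandiae Radix the largest negative differences included the glutathione transferases GSTA2 (-2.04) and GSTA1 (-1.42) and the prostaglandin reductase PTGR1 (-1.45). GSTA1 was at 36.7 and 37.2 CPM at 50 ug/mL Polygalae Radix and at 36.5 and 41.3 CPM at 10 ug/mL, a log2 change of -0.09, while its change in the Aucklandiae Radix step was 1.33. SLC5A11, a sodium-coupled inositol transporter near 2 CPM, differed by -1.54, and the locus AC008738.3 by -3.21. The largest positive differences were AC132217.1 (2.47), PRR36 (1.42), RPS26P19 (1.28), AC008738.7 (1.22) and IRX3 (1.19). Each was higher in 50 ug/mL replicate 2, the library with the GC trend, than in its mate. In that order their Polygalae Radix steps were 0.82, 0.69, 0.85, 0.88 and 0.41. Without that library they were 0.23, 0.46, 0.57, 0.41 and 0.26. IRX3, a homeobox factor, was at 37.4 and 30.6 CPM against 24.0 and 26.9 CPM.

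Against Guibi-tang the largest positive differences were AC132217.1 (2.04), AC092368.3 (1.19), PRR36 (1.08), AC008738.7 (0.92) and ARHGAP33 (0.91). Each was again higher in 50 ug/mL replicate 2 than in its mate. Without that library the Polygalae Radix step of AC092368.3 went from 0.83 to 0.71 and that of ARHGAP33 from 0.56 to 0.40. The largest negative differences were the processed pseudogenes RPL13P12 (-1.76), HSPD1P1 (-1.45), RPL17P6 (-1.16), RPL6P27 (-1.14) and RPS7P1 (-1.13), each highest in 10 ug/mL replicate 3. RPL13P12 was at 2.96, 3.06 and 3.20 CPM in the other libraries and at 14.7 CPM there.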

How the results depend on the processing

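The main counts were 1429 genes called, 565 higher and 864 lower, with 15 and 48 past 2-fold. DESeq2, RLE scaling, no low-count filter and a filter at 1 CPM kept the first 3 within 1.5 times. Past 2-fold they gave 2 higher and 2 lower (DESeq2), 51 and 91 (no filter), and 5 and 19 (filter). With the GC trend removed 8 passed 2-fold higher, and with GC and length removed 325 were higher, 8 past 2-fold. A fit on set 11 alone (12 libraries) called 98 genes (1 higher, 97 lower; 0 and 2 past 2-fold), and one on the 4 libraries 20 (1 and 19; 1 and 4). Leaving out 1 of the 4 libraries, with or without the GC trend, gave 361 to 3005 calls (19 to 1560 higher, 342 to 1445 lower, 2 to 48 and 9 to 79 past 2-fold). The extremes came without 50 ug/mL replicate 2 and without 50 ug/mL replicate 3, which leaves the GC-trend library alone at its dose, assumed to vary like the other groups. Without 50 ug/mL replicate 2 and with the GC trend removed, 513 were called (54 higher, 459 lower). Leaving out 1 library gave 568 to 2391 differences from Aucklandiae Radix and 365 to 2251 from Guibi-tang. The fit on set 11, chosen for this contrast after seeing the data, gave 104. Over the named genes no direction reversed in a called value: 1443 values stayed on their side of the threshold, 409 lost the call and 12 gained it. The causes were not tested.

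With the replicate number as a block, 1551 genes were called (627 higher, 924 lower), 1429 differed from Aucklandiae Radix and 1171 from Guibi-tang, and with the GC trend also removed 1273 were called. The deviations of same-numbered libraries at 50 and 10 ug/mL correlated at 0.15 over 13218 genes, with only 2 numbers, and nothing in the labels says that a number marks a shared batch.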
